A study of Mus musculus with 12 samples.

Results

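Long noncoding RNAs are transcripts that resemble messenger RNAs in length and processing but are not annotated with a protein product. Some act in the nucleus, some lie antisense to a coding gene, and some are the spliced remainder of a host gene whose introns carry small nucleolar RNAs (snoRNAs), the guides that direct chemical modification of ribosomal RNA. Spliced RNAs of several such hosts, Gas5 among them, are known targets of nonsense-mediated decay, which degrades RNAs as they are translated.

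The long noncoding RNAs described here are the rows of the gene table with the biotype lincRNA, antisense, processed_transcript, bidirectional_promoter_lncRNA, sense_intronic, sense_overlapping or lncRNA, on a chromosome other than X, Y or MT, whose FPKM averaged 2 or more across all 12 libraries. FPKM is a count of fragments scaled by the length of the transcript and a size of the library. How that size was set for these values is not stated in the sources used here. The rule gave 110 members among 54532 genes. Of 8949 noncoding rows of these biotypes at any level, 3349 had a value above 0 in at least 1 library and 188 reached a mean of 1 FPKM. The members were 43 lincRNA, 31 antisense, 28 processed_transcript, 5 bidirectional_promoter_lncRNA and 3 sense_intronic rows on 19 chromosomes, with 14 on chromosome 2 and 13 on chromosome 11. The members were chosen by their mean FPKM over these same libraries, so their levels are a description. Just above the limit stood Gm12279 at 2.04, 4930581F22Rik at 2.04 and Gm49207 at 2.07 FPKM, and just below it Snhg20 at 1.94, 2810001G20Rik at 1.94 and 2900093K20Rik at 1.999 FPKM. All 110 also passed the limit of 1 FPKM that a gene had to reach to be tested, but 27 had a mean under 2 FPKM in at least 1 group.

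The libraries came from primary hepatocytes of 6-week-old mice, in a study of the stress granule protein G3BP1 in fatty liver disease. The 4 groups of 3 libraries were G3bp1-Flox cells with BSA, G3bp1-Flox cells with PA, cells of the hepatocyte-specific G3bp1 knockout (HKO) with BSA, and HKO cells with PA. BSA and PA are not spelled out in the labels, and the sources used here do not state dose, duration, the driver of the knockout, the exons removed or whether the libraries of a group came from different mice. The p-values therefore measure only the spread between these samples, which may be technical.

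The noncoding label did not hold for every member. Matched by symbol and chromosome, RefSeq lists 76 of the 110 as lncRNA, 7 as protein-coding (Ifi30, 1810058I24Rik, Cct6a, Ptpmt1, Tmem250-ps, Tmem134 and Spata5l1) and 1, Gm10076, as a pseudogene, and 26 were not matched in this way. A near-identical copy elsewhere in the annotation, here at least 95% identity over at least 50% of the transcript, was found for 5 members. Gm10076 matched the ribosomal protein gene Rpl41 over 99.7% of its length at 99.5% identity, Gm49207 matched Ahsa1, Gm28901 matched Hnrnpf in reverse, 2900097C17Rik matched Gm7292 and Gm36551 matched Gm43495. The values of these 5 are uncertain, because reads could be split between the copies. The exons of 28 members shared bases with those of a coding gene. The library kit does not mark strand, so reads of such pairs cannot be told apart in the shared bases. Members were short, with a median length of 1126 bases (256 to 8306) against 3943 for the protein-coding genes tested.

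The members that carry small RNAs are shown first by sequence, because the PA results in Flox are described first for them. On their own strand, 16 members held 45 snoRNA rows in all: 2410006H16Rik, Epb41l4aos, Snhg6, AI506816, Snhg8, 1110038B12Rik, Cct6a, Gas5, Zfas1, Snhg1, Snhg15, Snhg12, Snhg5, Snhg17, Rab26os and Dancr. They were grouped in this way after their values had been seen. Gas5 held 10 of these rows and Snhg1 held 8, and the single row inside AI506816 is named Mir3096 although its biotype is snoRNA. Most of the snoRNA rows themselves are listed at 0 FPKM in the mean, and the highest was Snord49a at 7.03 FPKM, so the values below are those of the hosts. The stretches below run from 100 bases before to 50 bases after the start of the RefSeq transcript (GRCm38.p6, strand of the gene). Capitals mark a run of at least 6 C or T letters touching the 10 bases on either side of the start, the letters TATANA between 40 and 20 bases before it, and the letters TGACGTCA, the palindrome of a cyclic AMP response element, anywhere. Pyrimidine-rich starts are the mark of the 5′ terminal oligopyrimidine class, to which transcripts of ribosomal proteins and many snoRNA hosts belong. The first 6 were chosen because their level was lower in every Flox library with PA than in every Flox library with BSA and they hold such a run, Zfas1 because it was lower but holds none, and AI506816, Snhg15 and Rab26os because their Flox libraries overlapped. Snhg17 and Dancr also overlapped, hold none of the 3 patterns and are not printed.
2410006H16Rik, chr11:62602777-62602926, plus strand: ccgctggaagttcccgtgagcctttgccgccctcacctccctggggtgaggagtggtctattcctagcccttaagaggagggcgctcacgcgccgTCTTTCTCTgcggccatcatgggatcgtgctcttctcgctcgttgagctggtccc
Snhg1, chr19:8723387-8723536, plus strand: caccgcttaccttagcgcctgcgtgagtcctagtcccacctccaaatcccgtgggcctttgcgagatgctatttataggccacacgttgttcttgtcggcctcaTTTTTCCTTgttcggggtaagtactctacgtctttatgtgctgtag
Snhg12, chr4:132308578-132308727, plus strand: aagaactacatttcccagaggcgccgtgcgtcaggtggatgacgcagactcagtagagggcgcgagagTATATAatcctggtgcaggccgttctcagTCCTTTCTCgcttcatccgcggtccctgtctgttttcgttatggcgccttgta
1110038B12Rik, chr17:34952422-34952571, minus strand: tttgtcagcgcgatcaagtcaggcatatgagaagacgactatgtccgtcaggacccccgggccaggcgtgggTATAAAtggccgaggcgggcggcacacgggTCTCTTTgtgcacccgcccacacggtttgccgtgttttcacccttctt
Snhg5, chr9:88522848-88522997, minus strand: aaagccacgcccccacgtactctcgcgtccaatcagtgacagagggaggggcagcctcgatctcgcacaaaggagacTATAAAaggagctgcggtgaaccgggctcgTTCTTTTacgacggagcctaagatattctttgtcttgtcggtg
Snhg8, chr3:123508287-123508436, minus strand: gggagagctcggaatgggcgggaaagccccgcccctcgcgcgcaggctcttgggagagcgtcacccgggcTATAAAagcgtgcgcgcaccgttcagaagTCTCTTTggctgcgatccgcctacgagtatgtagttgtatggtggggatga
Zfas1, chr2:167062834-167062983, plus strand: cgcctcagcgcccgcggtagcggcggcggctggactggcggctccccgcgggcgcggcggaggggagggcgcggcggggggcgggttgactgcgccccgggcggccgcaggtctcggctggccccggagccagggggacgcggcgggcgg
AI506816, chr5:23712618-23712767, minus strand: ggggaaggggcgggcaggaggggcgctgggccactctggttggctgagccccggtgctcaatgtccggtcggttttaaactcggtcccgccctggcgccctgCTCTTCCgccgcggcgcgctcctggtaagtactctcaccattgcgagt
Snhg15, chr11:6528711-6528860, minus strand: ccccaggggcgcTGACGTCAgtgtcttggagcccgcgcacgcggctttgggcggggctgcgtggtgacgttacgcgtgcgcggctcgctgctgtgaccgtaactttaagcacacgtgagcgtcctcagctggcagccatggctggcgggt
Rab26os, chr17:24528151-24528300, plus strand: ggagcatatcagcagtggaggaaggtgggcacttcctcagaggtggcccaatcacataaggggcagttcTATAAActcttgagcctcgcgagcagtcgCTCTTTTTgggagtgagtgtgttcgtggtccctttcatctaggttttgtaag

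Of the 16 members with a snoRNA inside, 12 had a RefSeq promoter within 100 bases of the start in the table. The pyrimidine run was in 8 of these 12, TATANA in 5 and TGACGTCA in 1. Among the other members, 39 of 94 had such a promoter, with the run in 14, TATANA in 0 and TGACGTCA in 2. Over all 32817 mouse promoters the shares were 29.2% for the run, 3.11% for TATANA and 1.79% for TGACGTCA. The run and TATANA were searched on the strand of the gene, TGACGTCA reads the same on both, and the 3 patterns were chosen after the sequences had been read. A match is only a match of letters: Rab26os holds the run and TATANA, and its Flox libraries overlapped.

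The remaining small RNA hosts were Mir22hg, which contains miR-22, and the lincRNA AL805899.1, which contains miR-31. Their mature sequences (RefSeq, GRCm38.p6) are given because these are the RNAs for which the hosts are known, with the seed (bases 2 to 8) in capitals. The 4 seeds differ.
miR-22-5p: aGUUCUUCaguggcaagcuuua
miR-22-3p: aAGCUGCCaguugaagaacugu
miR-31-5p: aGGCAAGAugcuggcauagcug
miR-31-3p: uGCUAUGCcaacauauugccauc
Mir22hg stood between 5.76 and 12.04 FPKM over the 12 libraries, and AL805899.1 between 5.66 and 12.5 FPKM. AL805899.1 was at 6.39, 7.60 and 7.76 FPKM in Flox with BSA and at 7.88, 10.04 and 12.5 FPKM in HKO with BSA. These 2 groups did not overlap, but the difference did not pass the test (log2 difference 0.42, SE 0.15, adjusted p = 0.067). Mir22hg did not pass in any of the 5 comparisons.

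Reads in genes numbered 15.02 M to 18.42 M per library, and a member had a median of 94 reads (the median over members of each member's median library). The lowest count of a member was 3 reads, and 28 members were under 20 reads in some library. G3bp1 itself was at 37.7 to 45.7 FPKM in the 6 Flox libraries and 7.03 to 8.497 in the 6 HKO libraries. HKO libraries were more spread out than Flox libraries: the median SD of the members on the log2(FPKM + 1) scale was 0.144 and 0.161 in Flox with BSA and PA, and 0.254 and 0.291 in HKO with BSA and PA. HKO_PA 1, the library numbered 1 of HKO with PA, stood apart on the first principal component of the members, at 5.06 where the other 2 libraries of its group were at 2.23 and 1.93. The hepatocyte label held for all 8 hepatocyte markers listed, which summed to 7275 to 8533 FPKM in Flox and 10160 to 20580 in HKO. Of these 8, 3 rose in HKO with BSA (Tat by 0.96, Serpina1a by 0.94 and Ttr by 0.81), 4 rose with PA, and 0 fell in either. Alb, the highest of them, was at 4091, 15614 and 14048 FPKM in HKO with BSA. Markers of other cells also moved with genotype. The 12 macrophage markers summed to 1824 to 1936 FPKM in Flox with BSA, 1564 to 1780 in Flox with PA, 79.4 to 112.2 in HKO with BSA and 117.7 to 147.2 in HKO with PA, none was at 0 in any library, and all 12 fell in HKO in both treatments. The 6 neutrophil markers summed to 17.35 to 25.67 FPKM in Flox and 0.208 to 0.738 in HKO, with S100a8, S100a9, Ly6g, Cxcr2 and Mpo at 0 in some library. Of the 4 endothelial markers tested, 3 fell in HKO with BSA and 1 with PA, and the 1 stellate marker tested, Ecm1, fell by 2.01 in BSA and passed in PA as well. The 6 cholangiocyte markers went the other way, summing to 9.64 to 13.4 FPKM in Flox and 14.1 to 28.2 in HKO, and of the 2 tested, Sox9 rose by 0.73 in BSA and 0.84 in PA and Spp1 by 0.94 in PA. In bulk libraries, fewer cells of a type and less RNA per cell cannot be told apart.

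A few members held most of the level. The 12 highest made up 68.0% of the summed mean FPKM of all 110, and the highest 2 made up 34.9%, while 59 members were under 5 FPKM. The first was 2410006H16Rik, a snoRNA host that contains Snord49a, Snord49b and Snord65 (ENSMUSG00000086841, chromosome 11, 62602877 to 62604807, plus strand), with a mean of 428 FPKM. It was at 473, 465 and 425 FPKM in Flox with BSA, 335, 327 and 279 in Flox with PA, 586, 323 and 422 in HKO with BSA, and 647, 418 and 433 in HKO with PA. The second was 9530034E10Rik (mean 310 FPKM), an antisense row that crosses St3gal3 without sharing exon bases. It did not pass in any comparison, and its range within HKO with BSA (216 to 405 FPKM) covered its values in all other libraries except HKO_PA 1 (444 FPKM).

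**Figure D1:**
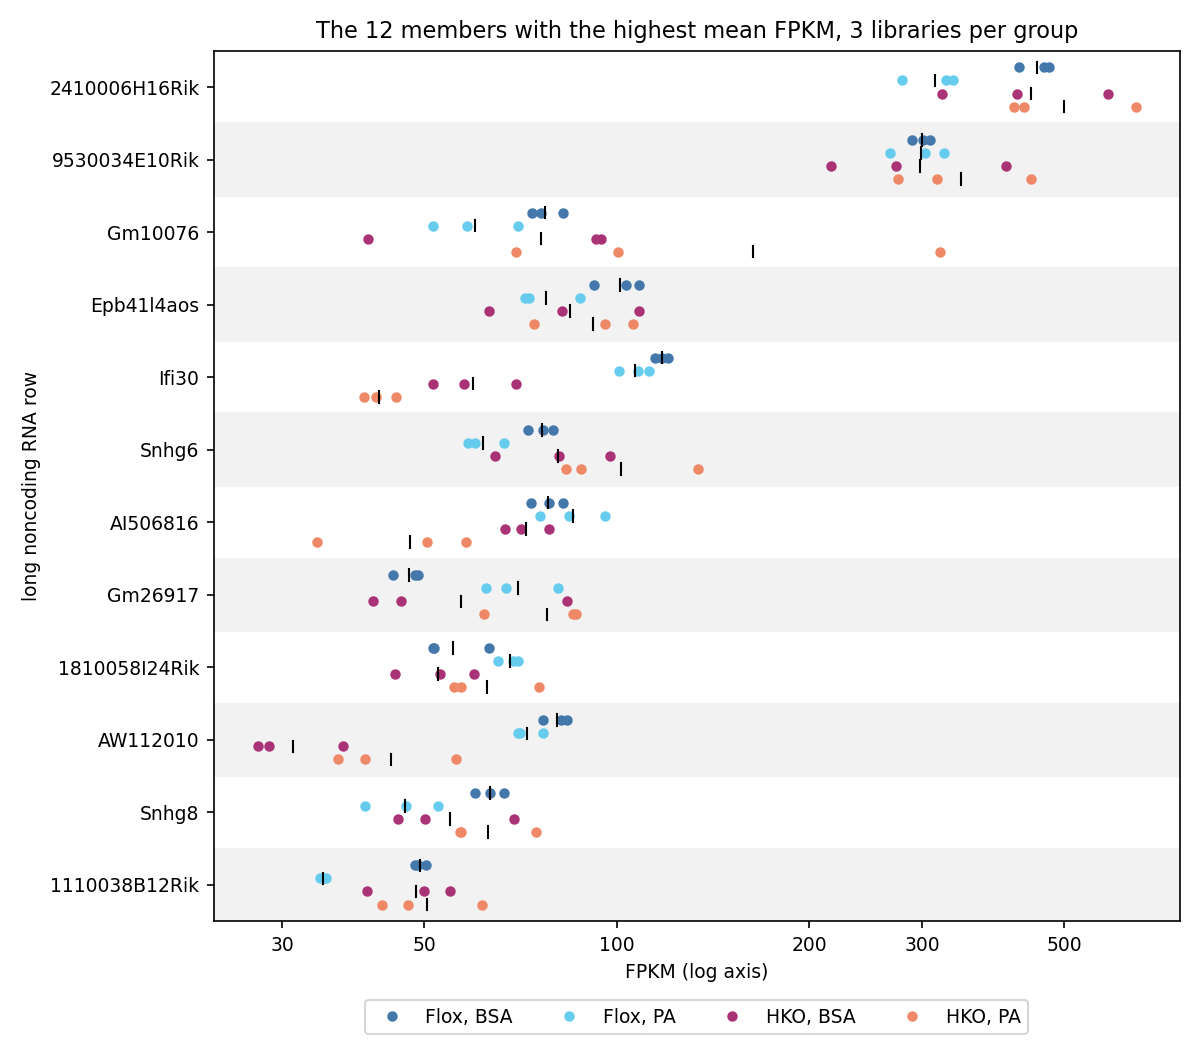
FPKM (log axis) of the 12 members with the highest mean, 1 point per library and a bar at each group mean, for the 4 groups of 3 libraries. 2410006H16Rik and 9530034E10Rik lie above the rest, Ifi30 and AW112010 are lower in HKO than in Flox in all libraries, and Gm10076 has 1 HKO PA library at 320 FPKM.

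Gm10076, the third highest member (94.3 FPKM), is the Rpl41 copy. It was at 320 FPKM in HKO_PA 1 and at 100.4 and 69.7 in the other 2 libraries of that group, at 40.9, 94.6 and 92.9 in HKO with BSA, and at 51.7 to 82.4 in the 6 Flox libraries. Rpl41 itself was at 2269 FPKM in HKO_PA 1 and 1310 and 1340 in the other 2. Gm10076 did not pass for HKO against Flox in PA (log2 difference 1.12, SE 0.44, adjusted p = 0.060).

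Gm26917 (63.2 FPKM) is a lincRNA row on chromosome 17 that ends 12 bases before Rn18s-rs5, an 18S ribosomal RNA related sequence that RefSeq lists as a pseudogene. It was at 48.4, 49.0 and 44.7 FPKM in Flox with BSA and 62.5, 81.0 and 67.1 in Flox with PA. These 2 groups did not overlap, but the difference did not pass (log2 difference 0.55, adjusted p = 0.26).

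In Flox cells, most members with a snoRNA inside had lower levels with PA than with BSA, and 2 of the 16 passed the test. The summed level of the 16 was 1010, 988 and 951 FPKM with BSA and 747, 745 and 682 FPKM with PA. Much of this sum and of its difference came from 2410006H16Rik, which averaged 454 FPKM with BSA and 314 with PA and did not pass (adjusted p = 0.25). Of the 16, 11 were lower in all 3 PA libraries than in all 3 BSA libraries and 0 were higher in all 3. Over all 9743 genes tested, the groups failed to overlap with PA lower in 16.9% and with PA higher in 22.1%. The median log2 difference of the 16 was -0.44, against 0.01 for the other 94 members and 0.02 for all genes tested.

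Snhg12, host of Snora16a, Snora44, Snora61 and Snord99, had the largest decrease among the members. It was at 20.8, 18.8 and 20.8 FPKM with BSA and 10.01, 9.55 and 9.51 with PA in Flox. The 6 values fell into separate ranges, and it fell by 0.98 on the log2 scale (SE 0.16, adjusted p = 0.0061). The call held with each of these 6 libraries left out. In HKO it was at 14.4, 10.01 and 13.3 FPKM with BSA and 14.6, 9.34 and 10.9 with PA, with the groups overlapping.

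Zfas1, which starts at the 5′ end of the RNA helicase gene Znfx1 on the opposite strand and hosts Snord12, was at 24.2, 27.4 and 25.2 FPKM with BSA and 13.3, 14.2 and 13.5 with PA in Flox. It fell by 0.86 (SE 0.16, adjusted p = 0.014). The direction held when any of the 6 libraries was left out, between -0.90 and -0.81, but the call was lost in 5 of these 6 fits, those without any of the 3 BSA libraries or without Flox_PA 2 or 3. In HKO, Zfas1 was at 21.6, 19.1 and 23.7 FPKM with BSA and 28.0, 17.4 and 18.1 with PA.

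The other 9 did not pass when the 4 groups shared an estimate of the spread. Gas5, the growth arrest-specific transcript, was at 29.7, 28.3 and 31.2 FPKM with BSA and 21.6, 19.7 and 15.7 with PA in Flox (log2 difference -0.63, SE 0.23, adjusted p = 0.21). Snhg1 was at 16.4, 15.2 and 19.4 FPKM with BSA and 9.19, 10.8 and 10.9 with PA (-0.67, SE 0.19, adjusted p = 0.10). 1110038B12Rik, host of Snord52, was at 50.4, 48.9 and 48.5 FPKM with BSA and 35.2, 34.4 and 34.7 with PA, without overlap (-0.49, SE 0.15, adjusted p = 0.13). The others were 2410006H16Rik, Epb41l4aos, Snhg5, Snhg6, Snhg8 and Cct6a, the last a chaperonin subunit gene that RefSeq lists as coding. When the fit was limited to the 6 Flox libraries, the same 11 that did not overlap all fell, and 0 of the 16 rose. In that fit 6.78% of all genes tested fell and 15.8% passed in either direction, against 0.913% and 2.21% in the fit of all 12 libraries. AI506816 and Snhg17 were the 2 with a fitted difference above 0, at 0.12 and 0.03.

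**Figure D2:**
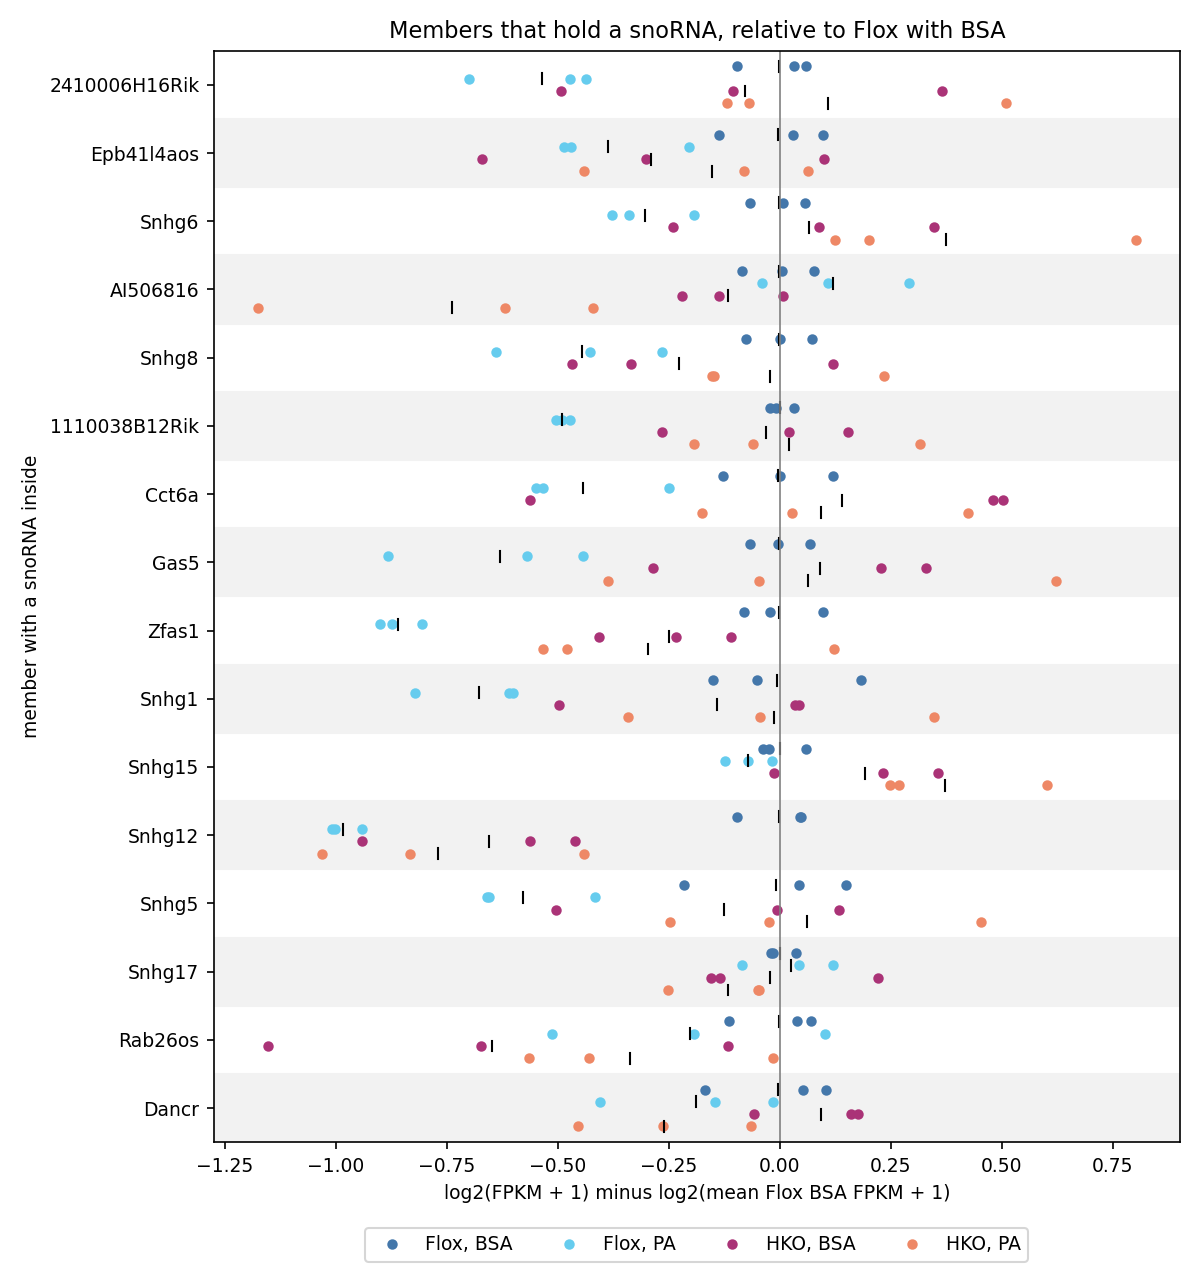
log2(FPKM + 1) of the 16 members with a snoRNA inside, set against the mean of Flox with BSA, 1 point per library and a bar at each group mean. In 11 of the 16 every Flox PA point lies left of every Flox BSA point, and the points of AI506816 lowest on the axis are its 3 HKO PA libraries.

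Coding genes that hold a snoRNA were set beside them. Of 183 tested, 46 (25.1%) were lower in all 3 PA libraries of Flox and 29 (15.8%) were higher in all 3, with a median log2 difference of -0.09. Of the 15 snoRNA-binding and snoRNA-processing proteins tested, such as fibrillarin, Nop58 and dyskerin, 0 passed for PA in Flox, with a median of -0.03. Macrophage markers also moved in Flox with PA. Of 12, 2 fell (Vsig4 by 0.93 and Timd4 by 0.55), with the sums given above. Their part in the levels of the hosts was not tested.

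Over all 110 members, PA in Flox called 4, which is 3.64% against 2.21% of all genes tested. Snhg12 and Zfas1 fell, and 2310034O05Rik and 1810034E14Rik rose. The lincRNA 2310034O05Rik was at 5.19, 5.19 and 4.86 FPKM with BSA and 8.89, 10.7 and 7.51 with PA (log2 difference 0.71, SE 0.14, adjusted p = 0.021). 1810034E14Rik, antisense to Cdc14b, was at 1.33, 1.41 and 1.67 FPKM with BSA and 3.44, 2.71 and 2.84 with PA (0.69, SE 0.17, adjusted p = 0.049). Neither pair of groups overlapped. The first call was lost in 5 of the 6 fits that left out a library (all but Flox_PA 3) and the second in all 6, with differences between 0.60 and 0.82 and between 0.62 and 0.75. In the fit limited to Flox, 7 members rose and 20 fell.

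In HKO, PA called 0 of 110 members by limma, against 2.94% of all genes tested (1.68% higher and 1.25% lower). At an unadjusted p under 0.05 there were 24, and limma-voom on the reads also called 0. Leaving out HKO_PA 3 gave 5 that rose and 2 that fell, and leaving out any other of the 6 HKO libraries gave 0 or 1. Of the 16 hosts, 0 were higher and 2 lower in all 3 PA libraries, with a median of 0.09. Over all genes tested 9.1% were lower and 9.1% higher in all 3. Beside the PA comparison in Flox, the members' differences had a Pearson r of 0.30 and a Spearman rho of 0.34 over 110 members, which share no library between these 2 comparisons, and 60 had the same sign.

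The interaction, the PA difference in HKO minus that in Flox, passed for 0 of 110 members by limma, where 0.267% of all genes tested passed. At an unadjusted p under 0.05 there were 20 members, and limma-voom called 0. The fitted value was above 0 for 13 of the 16 hosts, with a median of 0.57 against 0.20 for the other members and 0.02 for all genes tested. For Snhg12 it was 0.87 (SE 0.23, adjusted p = 0.11), for Zfas1 0.81 (SE 0.23, adjusted p = 0.13) and for Snhg1 0.80 (SE 0.27, adjusted p = 0.19). A different response of the hosts to PA in the 2 genotypes was thus not called for any of them.

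**Figure D3:**
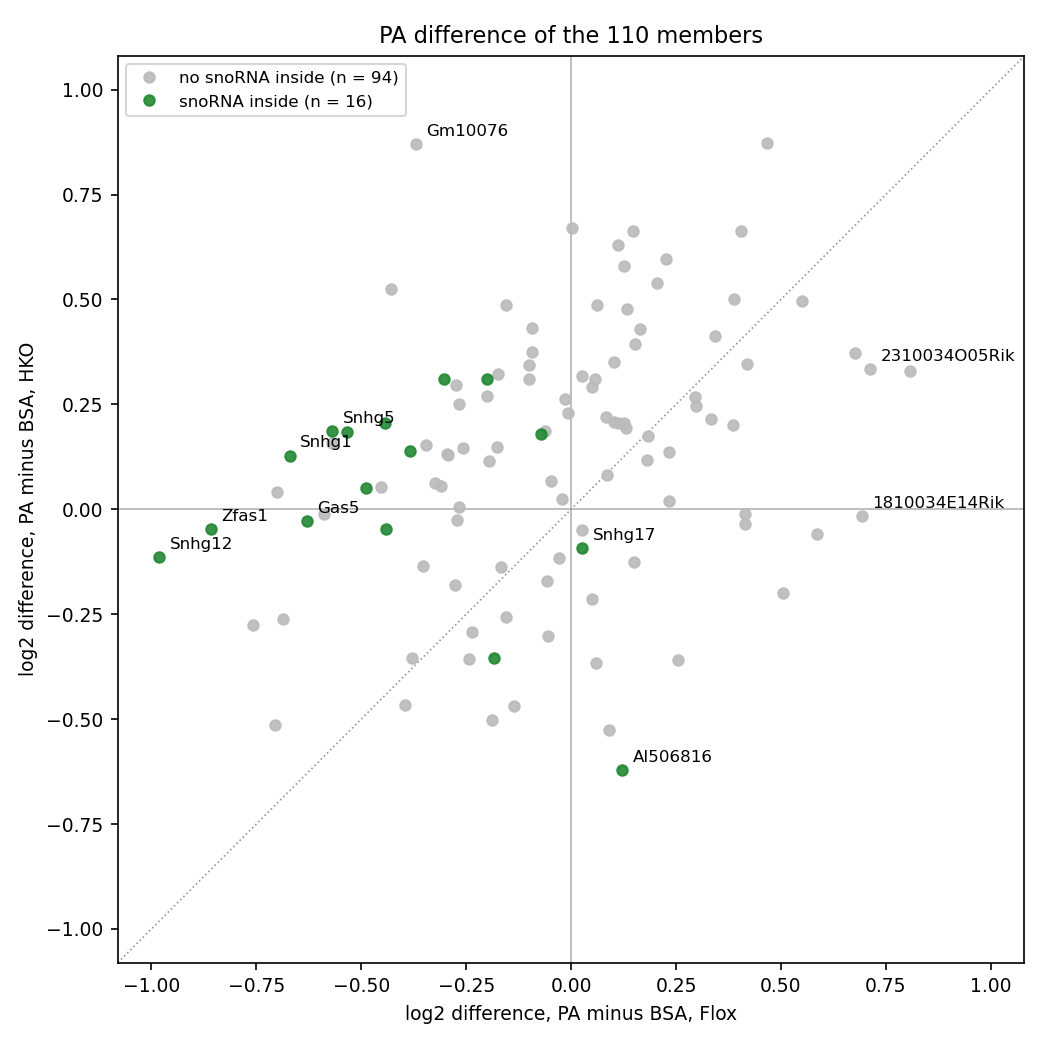
log2 difference with PA in Flox (horizontal) and in HKO (vertical) for the 110 members, with the 16 that hold a snoRNA in green. 14 of the 16 lie left of 0 in Flox, down to -0.98 for Snhg12, while 9 lie above 0 and 7 below 0 in HKO.

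HKO against Flox in BSA called 23 members, of which 11 rose and 12 fell. This was 20.9% of members against 20.5% of all genes tested, of which 9.63% rose and 10.8% fell. With PA, 28 rose and 13 fell, 37.3% of members against 35.7% of all genes tested, of which 16.9% rose and 18.8% fell. Both shares were near the background. Of the 83 members with every group mean at 2 FPKM or more, 6 rose and 9 fell in BSA, and 20 rose and 10 fell in PA. The split between rises and falls depended on scaling. In PA, it was 17 and 23 after removal of the trend with gene length, 17 and 17 by limma-voom, and 34 and 8 after quantile normalization, and it was 16 and 13 without HKO_PA 1. In BSA, the 3 scalings gave 9 and 21, 8 and 16, and 15 and 10. Limma-voom moved the median of all genes to -0.13 in BSA and -0.16 in PA, from 0.04 and 0.00.

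The members that passed in both treatments always moved the same way. Of these 15, 9 were higher in HKO and 6 lower. Between the 2 treatments, which share no library here, the log2 differences of the 110 members had a Pearson r of 0.71 and a Spearman rho of 0.65.

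**Figure D4:**
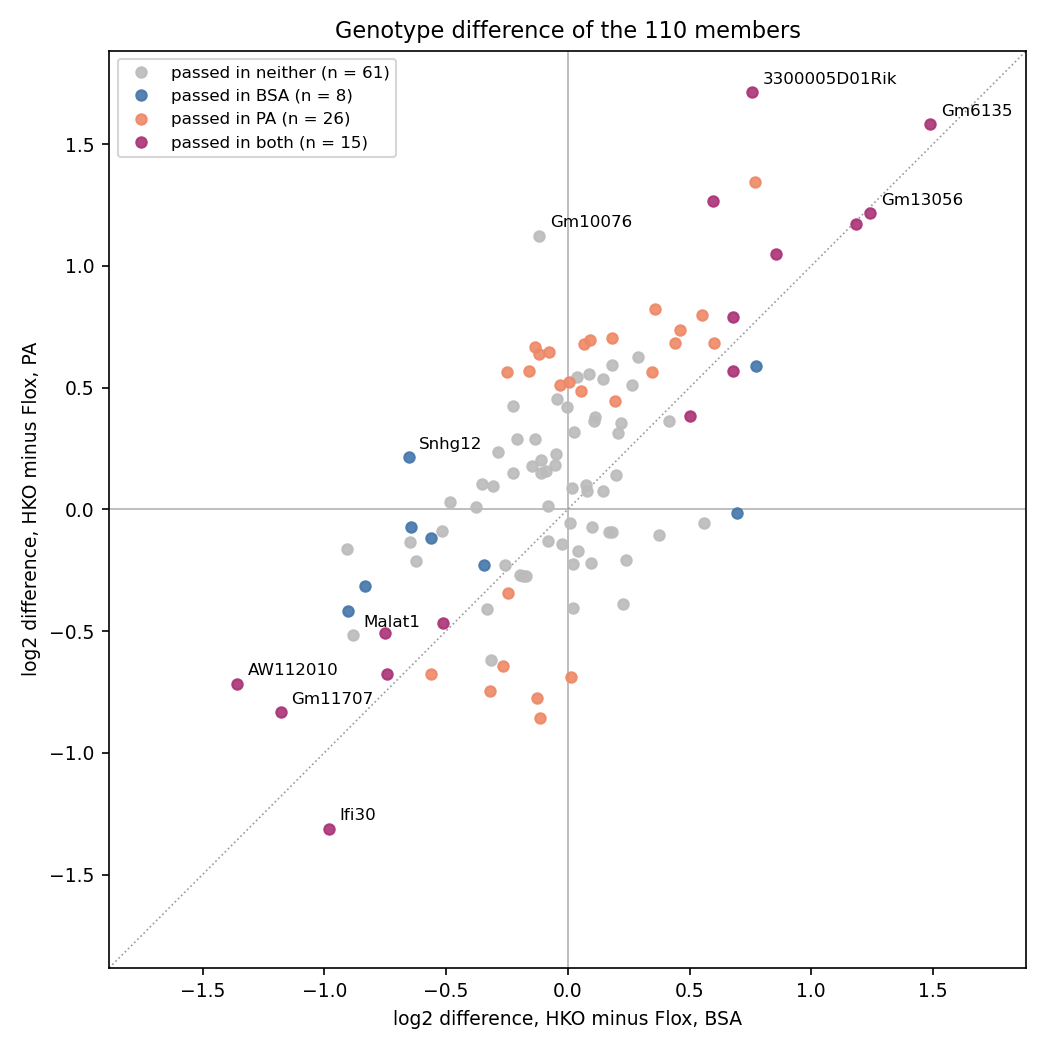
log2 difference of HKO minus Flox with BSA (horizontal) and with PA (vertical) for the 110 members, coloured by the test they passed. The 15 that passed in both lie in the upper right (9) and lower left (6), and the 26 that passed only with PA lie mostly above 0.

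Among the 6 members lower in HKO in both treatments, Ifi30 and AW112010 had the highest levels. Ifi30 is annotated here as a processed transcript but is the gene of a lysosomal thiol reductase that acts in antigen presentation. It was at 120, 118 and 115 FPKM in Flox with BSA, 100.8, 108 and 112 in Flox with PA, 69.6, 51.6 and 57.8 in HKO with BSA, and 40.4, 42.0 and 45.2 in HKO with PA. No HKO library reached the lowest Flox library. Ifi30 fell by 0.98 in BSA (SE 0.13, adjusted p = 5.7e-05) and by 1.31 in PA (SE 0.13, adjusted p = 2.8e-06).

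AW112010 is known as a transcript induced in immune cells by inflammatory signals. It was at 83.7, 76.6 and 81.9 FPKM in Flox with BSA, 70.6, 70.2 and 76.6 in Flox with PA, 28.6, 27.5 and 37.4 in HKO with BSA, and 56.1, 40.5 and 36.7 in HKO with PA. It fell by 1.36 in BSA (SE 0.16, adjusted p = 2.3e-05) and by 0.72 in PA (SE 0.16, adjusted p = 0.0044). Both calls, like those of Ifi30, held with each library left out. Beside these values stand the macrophage markers, of which 12 of 12 fell in HKO, with a median of -4.19 in BSA and -3.48 in PA, and Cd5l by 5.23 in BSA. Their part in the decrease of the 2 members was not tested.

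The 4 others that fell in both treatments were lower in level. G930009F23Rik, a lincRNA, was at 6.43, 6.81 and 6.28 FPKM in Flox with BSA and 4.34, 2.90 and 3.27 in HKO with BSA (-0.75, adjusted p = 0.0028), and its call in PA (-0.51, adjusted p = 0.020) was lost in 4 of 6 fits that left out a library (Flox_PA 1, Flox_PA 2, HKO_PA 2 or HKO_PA 3). Gm43661, a lincRNA beside Vps37b, was at 4.49, 5.07 and 6.42 FPKM against 3.28, 2.59 and 2.45 in BSA, and fell by 0.74 there (adjusted p = 0.0030) and by 0.68 in PA (adjusted p = 0.0041). Gm11707, at 3.31, 2.74 and 3.08 FPKM in Flox with BSA against 0.920, 0.518 and 0.946 in HKO with BSA, fell by 1.18 there (adjusted p = 0.0063). In PA its groups overlapped (2.79, 5.43 and 2.55 FPKM against 2.89, 0.675 and 1.35), and the call (-0.83, adjusted p = 0.028) was lost without Flox_PA 2, HKO_PA 2 or HKO_PA 3. The last was 2310015A10Rik (-0.51 in BSA and -0.47 in PA).

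Falls that passed only with BSA included Snhg12 (-0.65, adjusted p = 0.011) and Gm11216. Gm11216, a lincRNA on chromosome 4, was at 19.9, 21.2 and 17.7 FPKM in Flox with BSA, 12.1, 10.2 and 11.2 in Flox with PA, 6.92, 12.004 and 11.9 in HKO with BSA, and 8.62, 10.8 and 5.61 in HKO with PA. The Flox BSA libraries stood above all 9 others, and the fall in HKO with BSA was 0.90 (SE 0.22, adjusted p = 0.0094). The comparisons of PA in Flox and of HKO in BSA share the Flox BSA libraries, for Snhg12 as well. Falls that passed only with PA included AI506816, at 76.0, 84.3 and 95.9 FPKM in Flox and 34.0, 50.5 and 58.1 in HKO (-0.86, SE 0.17, adjusted p = 0.0022), the only host to fall there. Gm14257 (-0.69, adjusted p = 0.0017) and Mirt2 (-0.75, adjusted p = 0.0050), an antisense row known from infarcted heart muscle and as a brake on inflammatory signalling, also fell, and all 3 calls held with each library left out. Gm29093 (-0.77, adjusted p = 0.021) and Gm49172 (-0.67, adjusted p = 0.042) were each lost in 4 of 6 such fits: Gm29093 without Flox_PA 1, Flox_PA 3, HKO_PA 1 or HKO_PA 2, and Gm49172 without any of the 3 Flox_PA libraries or HKO_PA 3.

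Of the members higher in HKO, 5 of 11 with BSA and 9 of 28 with PA were lincRNAs. The lincRNA Gm6135 (chromosome 3, 133789515 to 133791504, minus strand) was at 1.83, 2.16 and 2.55 FPKM in Flox with BSA, 3.68, 2.38 and 1.53 in Flox with PA, 9.18, 6.99 and 7.63 in HKO with BSA, and 10.2, 8.89 and 8.72 in HKO with PA. The lowest HKO library was above the highest Flox library. Gm6135 rose by 1.49 in BSA (SE 0.19, adjusted p = 4.8e-05) and 1.58 in PA (SE 0.19, adjusted p = 2.7e-05), a ratio of means of 3.64 and 3.66. These values rest on 10 to 53 reads per library.

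Gm13056, on chromosome 4, was at 2.78, 2.95 and 3.66 FPKM in Flox with BSA, 3.79, 5.66 and 3.02 in Flox with PA, 11.3, 6.86 and 8.53 in HKO with BSA, and 13.2, 8.91 and 10.4 in HKO with PA. Gm13056 rose by 1.24 in BSA (SE 0.21, adjusted p = 0.00059) and 1.22 in PA (SE 0.21, adjusted p = 0.00064), and no HKO library overlapped a Flox library.

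3300005D01Rik, a lincRNA on chromosome 17, was at 8.71, 7.27 and 7.93 FPKM in Flox with BSA, 4.29, 6.43 and 6.47 in Flox with PA, 12.5, 15.2 and 14.8 in HKO with BSA, and 26.2, 17.4 and 19.6 in HKO with PA. It rose by 0.76 in BSA (SE 0.17, adjusted p = 0.0065) and by 1.71 in PA (SE 0.17, adjusted p = 4.2e-06), the largest rise among the members. PA was the lower treatment in Flox and the higher in HKO, each without overlap. The interaction did not pass (0.96, SE 0.25, adjusted p = 0.10). The 2 genotype calls of 3300005D01Rik, Gm6135 and Gm13056 held with each library left out.

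Gm27216, on chromosome 9, was at 1.29, 2.20 and 1.96 FPKM in Flox with PA and 7.71, 4.57 and 5.21 in HKO with PA, and rose by 1.27 (SE 0.20, adjusted p = 0.00026). In BSA its rise of 0.60 (adjusted p = 0.045) was lost in 5 of the 6 fits that left out a library, all but the fit without Flox_BSA 3. Gm19619, a lincRNA near Btc, rose by 0.86 in BSA (adjusted p = 0.013) and 1.05 in PA (adjusted p = 0.0027), the first call being lost without Flox_BSA 1, Flox_BSA 2 or HKO_BSA 3. Gm20703 (1.35, adjusted p = 0.0036) and Gm13522 (0.82, adjusted p = 0.0020) rose in PA, and both held in all 6 such fits. Their means with PA were 1.67 FPKM in Flox and 6.27 in HKO for Gm20703, and 1.37 and 3.23 for Gm13522. Both Flox means were under the level limit of 2 FPKM, and Gm20703 rested on 8 to 52 reads per library. The other members higher in both treatments were Gm20319 and Gm20684, described below, 2210408F21Rik and BC024386. The call of Gm20684 in PA was lost without Flox_PA 1, Flox_PA 3 or HKO_PA 3.

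With PA, 8 of the 16 snoRNA hosts rose in HKO, 1 fell and 7 did not pass, with a median of 0.48. Of all genes tested, 16.9% rose and 18.8% fell. For 10 of the 16 all HKO libraries lay above all Flox libraries and for 1 below. Of all 9743 genes tested, 2534 lay above in this way and 2535 below, 52.0% together. Snhg6 was at 66.7, 58.6 and 60.2 FPKM in Flox and 134, 87.9 and 83.3 in HKO (0.68, SE 0.18, adjusted p = 0.013). Gas5 was at 21.6, 19.7 and 15.7 against 46.3, 28.8 and 22.5 FPKM (0.69, SE 0.23, adjusted p = 0.031), Snhg1 rose by 0.66 (adjusted p = 0.016), Zfas1 by 0.56 (adjusted p = 0.017), and 2410006H16Rik, 1110038B12Rik, Snhg15 and Snhg5 rose as well. This comparison shares the Flox PA libraries with that of PA in Flox. With BSA, 0 of the 16 rose and 1 fell, with a median of -0.10. The count of rises with PA varied between fits. It was 1 without HKO_PA 1, where only the call of Snhg6 held, but 9 without both HKO libraries numbered 1. Leaving out Flox_PA 3, Flox_PA 1 or Flox_PA 2 gave 2, 3 and 4, and leaving out HKO_PA 2 or HKO_PA 3 gave 8. It was 4 with the trend in gene length removed, 3 by limma-voom and 5 with no filter. Quantile normalization gave 7, trimmed mean scaling 8 and the replicate block 9, and in all these fits 1 fell. HKO_PA 1 had the highest summed level of the hosts, 1260 FPKM, against 874 and 896 for the other 2 libraries of its group. Within these sums, 2410006H16Rik alone was at 647, 418 and 433 FPKM. As a share of reads, the hosts held 0.109% to 0.122% in HKO with PA and 0.111% to 0.113% in Flox with PA. Short transcripts in general were higher in HKO with PA: the Spearman rho of log2 difference on length was -0.32 over all genes tested, and 931 genes under 1000 bases had a median of 0.36. Over the members this rho was 0.03. The part of scaling, depth, length or that library in the host counts was not tested.

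By biotype, the processed_transcript rows, which hold 12 of the 16 hosts and most of the named Snhg genes, had 15 rises and 4 falls among 28 in HKO with PA, the lincRNA rows 9 and 6 among 43, and the antisense rows 2 and 2 among 31, beside 16.9% and 18.8% of all genes tested. The first count was 6 and 4 by limma-voom, 7 and 4 with the length trend removed, and 5 and 3 without HKO_PA 1.

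Antisense and intronic members were set beside the coding genes that they cross. The partner of each was the overlapped coding gene with the most shared exon bases, or the highest level where these were equal. Of 42 members that overlap a coding gene, 38 lie on the strand opposite to this partner, and 31 had a partner that was tested. In BSA, 6 members and 11 partners passed for HKO against Flox, and both passed in 4 pairs, each in the same direction. Of all genes tested, 20.5% passed there. Gm20684, which starts head to head with the proprotein convertase gene Pcsk6, rose by 0.68 and Pcsk6 by 0.77. Gm11789 rose by 0.77 beside the glucagon receptor gene Gcgr, which rose by 0.81. Gm13822 fell by 0.83 beside the interferon-induced gene Oasl1, which fell by 0.65, and Rab10os fell by 0.34 beside Rab10, which fell by 0.35. Gm20684 and Gm11789 share no exon bases with their partners, while 11% of the exon bases of Gm13822 and 2.3% of those of Rab10os lie in exons of the partner. The first 2 still overlap the partner gene, with Pcsk6 at a mean of 20.9 FPKM and Gcgr at 29.3. As the kit does not mark strand, reads from introns of the partner could be counted for these members, which was not tested. The call of Gm13822, at 4.08, 4.03 and 2.42 FPKM in Flox and 1.49, 1.47 and 1.51 in HKO, was lost in 5 of the 6 fits that left out a library (all but Flox_BSA 3), and that of Gm11789 without Flox_BSA 1, Flox_BSA 2 or HKO_BSA 1.

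In PA, 9 members and 15 partners passed, and both passed in 4 pairs, 3 of them in the same direction. With the nearest tested coding gene as the partner (80 pairs), 17 members and 17 partners passed in BSA, and 33 members and 30 partners in PA. Both passed in 4 pairs in BSA, 4 of them in the same direction, and in 14 pairs in PA, 10 of them in the same direction. Of all genes tested, 20.5% passed in BSA and 35.7% in PA, so both can pass in a pair without any link. Whether the pair counts exceed that level was not tested. Gm20319, antisense to the interleukin 1 receptor accessory gene Il1rap, was at 2.04, 1.42 and 2.17 FPKM in Flox and 7.41, 5.53 and 3.88 in HKO, and rose by 1.17 (SE 0.20, adjusted p = 0.00064) as Il1rap rose by 0.71. Because 49.1% of its exon bases lie in exons of Il1rap, the 2 values are not independent. Gm49172 fell by 0.67 with Ano6 (-0.63). The pair that parted was Zfas1, which rose by 0.56, and Znfx1, which fell by 1.77. Over the 31 pairs, the Pearson r of the 2 differences was 0.51 in BSA and 0.26 in PA, as a description of pairs that share reads in part.

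**Figure D5:**
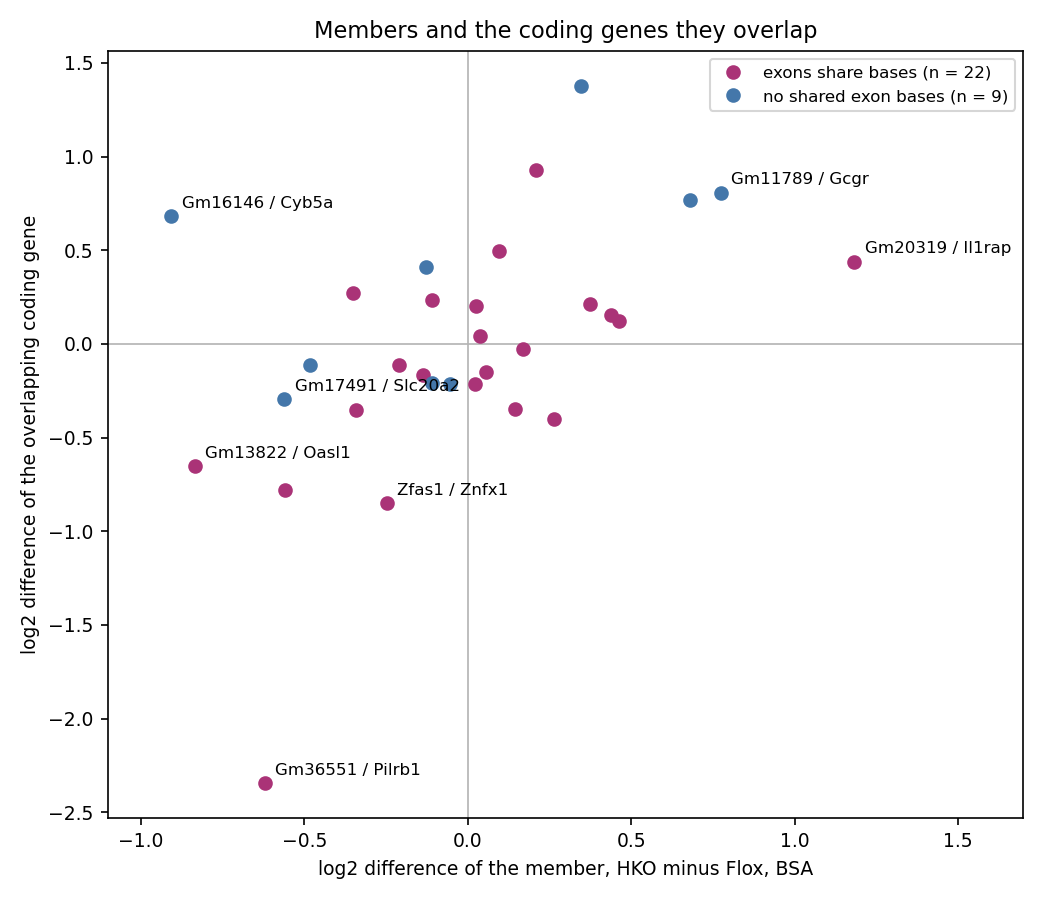
log2 difference of HKO minus Flox with BSA for 31 members (horizontal) and the coding gene that each overlaps (vertical), coloured by whether their exons share bases. Gm11789 and Gcgr lie together in the upper right and Gm13822 and Oasl1 in the lower left, while Gm16146 (-0.91) and Cyb5a (0.68) lie apart.

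Some listed members were not called. Malat1, the nuclear speckle RNA, was at 7.39, 12.5 and 3.71 FPKM in Flox with BSA, 6.04, 5.03 and 5.59 in Flox with PA, 2.77, 3.97 and 3.54 in HKO with BSA, and 2.13, 5.83 and 3.47 in HKO with PA. Its groups overlapped in every comparison, and HKO against Flox in BSA gave -0.88 (SE 0.32, adjusted p = 0.072). 2900097C17Rik, a name that RefSeq gives as a synonym of Norad, the RNA that binds Pumilio proteins, was between 3.68 and 7.33 FPKM and passed in no comparison. Neat1, the scaffold RNA of paraspeckles, is not a member, at a mean of 0.751 FPKM. Dancr, Snhg17, Epb41l4aos and Fam120aos passed nowhere. Gt(ROSA)26Sor, the transcript of the locus used for transgene insertion, was at 4.04, 3.35 and 3.69 FPKM in Flox with BSA and 2.33, 2.37 and 2.58 with PA, apart but not called (-0.45, adjusted p = 0.32). Wincr1 rose in HKO with PA by 0.57 (adjusted p = 0.022), a call lost without HKO_PA 1, Flox_PA 2 or Flox_PA 3. None of the 10 imprinted noncoding RNAs found in the table reached a mean of 1 FPKM. Of the 14 listed snoRNA hosts that were tested, members or not, 0 rose and 2 fell with PA in Flox, 0 rose and 1 fell in HKO with BSA, and 6 rose and 0 fell in HKO with PA. Of all genes tested, 1.29% rose and 0.913% fell, 9.63% rose and 10.8% fell, and 16.9% rose and 18.8% fell in these 3 comparisons. As 11 of the 14 are members already counted above, these counts largely repeat those.

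Proteins that bind or degrade noncoding RNA were counted as listed groups, and 0 of them passed for PA in either genotype or for the interaction. The counts for HKO against Flox below stand beside 20.5% of all genes called in BSA (9.63% higher and 10.8% lower) and 35.7% in PA (16.9% higher and 18.8% lower). In either direction, the speckle proteins in PA had a larger share called. The snoRNA proteins in BSA and the nonsense-mediated decay factors in PA were near the share of all genes. By single direction, falls of snoRNA and paraspeckle proteins in BSA, and rises of exosome factors and falls of speckle proteins in PA, were above the share of all genes, on few genes each. Falls of nonsense-mediated decay factors in PA were near it. The lists are short, and these shares were not tested. Of the 15 snoRNA proteins, 4 fell in HKO with BSA, among them nucleolin (Ncl, -1.12, adjusted p = 0.0051), the nucleolar chaperone Nolc1 (-0.88, adjusted p = 0.00042) and the H/ACA protein Gar1 (-0.52, adjusted p = 0.043). With PA, 1 rose, the C/D box protein Snu13 (0.42, adjusted p = 0.040), and 0 fell. Of 16 paraspeckle proteins, 0 rose and 3 fell in BSA (Taf15 -0.84, Rbm14 -0.64 and Cpsf6 -0.55), and 2 rose and 3 fell in PA. Of 14 nonsense-mediated decay factors, 0 rose and 1 fell in BSA (Upf2, -0.64), and 2 rose and 3 fell in PA, with Dhx34 at -0.66 and Magoh at 0.63. Of 14 exosome and nuclear decay factors, 0 passed in BSA and 4 rose in PA, led by Exosc8 (0.96, adjusted p = 0.00098), Rbm7 (0.81, adjusted p = 0.024) and Exosc1 (0.63, adjusted p = 0.0029). Of 13 speckle proteins, 1 fell in BSA, and 2 rose and 6 fell in PA, with Srrm2 at -0.99 and Srsf3 at 0.86.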

How the data were processed

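Per the submitters' processing notes, the genome build was GRCm38 (mm10). For the aligner, counter, strand setting and annotation, nothing is given in the sources used here. The authors deposited FPKM per gene with the gene length used. FPKM times length gave whole reads (within 0.01, for values up to 1000 reads) for 100% of values, so reads per gene were recovered from the FPKM that the authors deposited. In HKO_PA 1, Gm10076 (384 bases) stood at 320 FPKM on 1653 reads. That puts the library size used for its FPKM below the 15.79 M reads in genes of that library. The deposited FPKM are thus not scaled by reads in genes or by all mapped reads alone. Group and library come from the labels.

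All 110 members were tested within 1 limma 3.58.1 model (R 4.3.3) of 4 group means on log2(FPKM + 1), over the 9743 genes averaging 1 FPKM or more, with a variance prior that follows the mean. Differences on this scale understate changes of genes near 1 FPKM. P-values are two-sided and Benjamini-Hochberg adjusted over all genes tested, and a gene under 0.05 is said to have passed, risen or fallen. The test was checked on simulated data, drawn around the Flox BSA means with the same dispersion for every library. That check therefore did not cover the wider spread of the HKO libraries. Near-identical copies were sought with BLAST+ 2.17.0 in GENCODE M21 transcripts, and 108 of 110 members have the same coordinates there. Promoters, miRNAs and gene classes are from RefSeq (GRCm38.p6), in which 70 of 110 members have a promoter.

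The members and lists were chosen with earlier results of these data known. Named members are the 12 highest, the 8 per comparison and direction (5 for the interaction) with the largest difference among those that passed without overlap of groups, members of the listed noncoding RNAs, the 3 rows on either side of the level limit, the 3 proteins per list with the largest difference that passed, and genes that a named member overlaps. 2210408F21Rik, BC024386, 2310015A10Rik, Gm16146 and AL805899.1 were named after their values were seen. Alternatives covered pseudocount, filter, scaling, gene length, samples in the fit, replicate number and libraries. The counts of members with a snoRNA inside, coding snoRNA hosts, biotypes and the 83 members were added after the data were seen. The values of 1 overlapping pair are not reported here.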

Additional observations from a re-analysis of the deposited data

How the results depend on the processing

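The number of members that passed for PA in Flox, 4, was 8 after quantile normalization, 2 by limma-voom, 27 in a fit limited to Flox, 24 without both HKO libraries numbered 1, and between 1 and 3 with a library left out. For PA in HKO, 0 became 1 with a filter at 5 FPKM, 2 after quantile normalization, 2 after trimmed mean scaling, 3 with the length trend removed, 4 without both HKO libraries numbered 1, 3 among the 188 rows with a mean of at least 1 FPKM, and between 0 and 7 with a library left out. For HKO in BSA, 23 became 9 with a filter at 5 FPKM, 44 among the rows of at least 1 FPKM, 9 among those of at least 5 FPKM, and 16 to 26 with a library left out. For HKO in PA, 41 became 27 with no filter, 22 with a filter at 5 FPKM, 21 among rows of at least 5 FPKM, and 25 to 43 with a library left out, the lowest without Flox_PA 3 (25) and Flox_PA 1 (27). The interaction, 0, became 1 among rows of at least 1 FPKM. The higher filter and the other level limits change which rows are counted, and otherwise the cause was not tested. Of 50 calls of named members, 29 passed under every alternative run and 30 with each library left out, and of 784 values under alternatives 119 no longer passed and 0 changed direction. Members near 2 FPKM rest on few reads, down to 3, where small differences were not detectable.

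In each of the 4 comparisons of groups, at least 1 of the 3 same-numbered pairs had deviations that correlated under 0.1, so the numbers were not taken to pair the libraries: 0.203, -0.015 and 0.316 for PA in Flox, -0.243, 0.349 and -0.484 for PA in HKO, 0.14, 0.044 and 0.182 for HKO in BSA, and 0.276, -0.212 and 0.363 for HKO in PA. Flox BSA with HKO PA, which are not compared, had 0.127, 0.185 and 0.142. With the replicate block, 4, 0, 23 and 40 members passed for PA in Flox, PA in HKO, HKO in BSA and HKO in PA, and 0 for the interaction. With a replicate block within genotype, 2 passed for PA in Flox and 0 for PA in HKO.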
